A study of Homo sapiens with 90 samples.

Results

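Cetuximab is an antibody against the epidermal growth factor receptor (EGFR), and the samples described here are the cetuximab-treated BxPC-3 cells collected 8 h and 1 day after the antibody was added. BxPC-3 is an established line of human pancreatic ductal adenocarcinoma. They were chosen by their labels, as the day 1 and 8 h arrays of the cetuximab arm, and make up 6 of the 90 arrays of the series, 3 at each time. The comparison is day 1 minus 8 h in that arm, over all genes, with the genes of the cell cycle described first.

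All 90 arrays held total RNA of BxPC-3 cells, labelled with biotin and hybridised to 1-colour Illumina HumanHT-12 v4 beadchips, with 3 arrays for each of 30 combinations of arm and time. In both arms the cells had been starved in DMEM with 0.2% FBS for 24 h before time 0, were grown in DMEM with 2% FBS, and were seeded in 12-well plates. The day 1 and 8 h cetuximab groups received the antibody at 10 µg/ml from time 0. The day 1 and 8 h control groups, 6 further arrays, are labelled as negative controls, and the sources used here do not say what, if anything, they received in place of the antibody. The labels do not say whether the replicates of a group came from separate cultures. The p-values therefore measure the spread between arrays of the same group, pooled over all 30 groups, and that spread may be technical. Precision is limited by the number of arrays.

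Cells leave quiescence through G1, in which cyclin D and its kinases, and then cyclin E, release the E2F factors that turn on the genes of DNA replication. Genes for mitosis follow later, through the MuvB complex with B-MYB and FOXM1, which acts at the cell cycle homology region (CHR) and at CCAAT boxes. EGFR feeds this step through the ERK kinases, whose output includes FOSL1, DUSP and SPRY genes and CCND1, and receptor blockade is known to lower that output in cells that depend on the receptor.

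Levels are the log2 values the authors deposited, and a change of 1 on this scale is a 2-fold change. Each change is given with its standard error from one limma model of all 90 arrays, and a gene counts as called where its p, adjusted by Benjamini and Hochberg across all 12734 genes, was below 0.05. The 6 arrays had nearly equal medians, 4.29 to 4.31, and arrays of one group correlated across genes at 0.979 to 0.984 on day 1 and 0.983 to 0.986 at 8 h. All 8 ductal epithelial markers that were looked for passed the filter on dim probes, and their mean level was 8.93 to 9.13 on day 1 and 9.00 to 9.09 at 8 h. The markers of fibroblasts averaged 3.95 to 4.01 on day 1 and 4.17 to 4.18 at 8 h (5 of 8 had passed), those of leukocytes 4.39 to 4.62 on day 1 and 4.37 to 4.62 at 8 h (2 of 6), and those of acinar and islet cells 4.09 to 4.20 on day 1 and 4.00 to 4.15 at 8 h (1 of 6), near the filter limit of 4.24.

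Between 8 h and day 1 the cetuximab-treated cells called 4538 of the 12734 genes, or 35.6%. Of these, 2380 were higher on day 1 (18.7% of the genes tested) and 2158 were lower (16.9%). The median change over all genes was -0.00 and the median size of a called change was 0.46, with 320 called genes past 1 in either direction. The 3 day 1 arrays lay wholly above the 3 arrays of 8 h in 2583 genes (20.3%) and wholly below them in 2392 (18.8%). Of the called genes, 4043 were also separated in this way, 2142 upwards and 1901 downwards.

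Most of the cell cycle genes measured rose. Of 304 genes in 10 lists of cell cycle genes, 254 were measured, and in the cetuximab arm 176 of them rose (69.3%, beside the 18.7% of all genes), 16 fell and 62 were not called, with a median change of 0.53 against -0.00 over all genes. Day 1 lay wholly above 8 h in 171 of the 254 and wholly below it in 16. The lists differed from one another, with medians of 0.12 for the G1 cyclins and E2F factors and 0.05 for canonical histones, 0.37 for origin licensing, 0.50 for the replication fork and nucleotide supply, and 0.72 to 1.03 for the 4 lists of mitosis. The counts of single lists below stand beside the 18.7% of all genes that rose in this arm and the 16.9% that fell. A bulk array cannot tell more cells in a phase apart from more RNA of its genes in each cell.

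**Figure D1:**
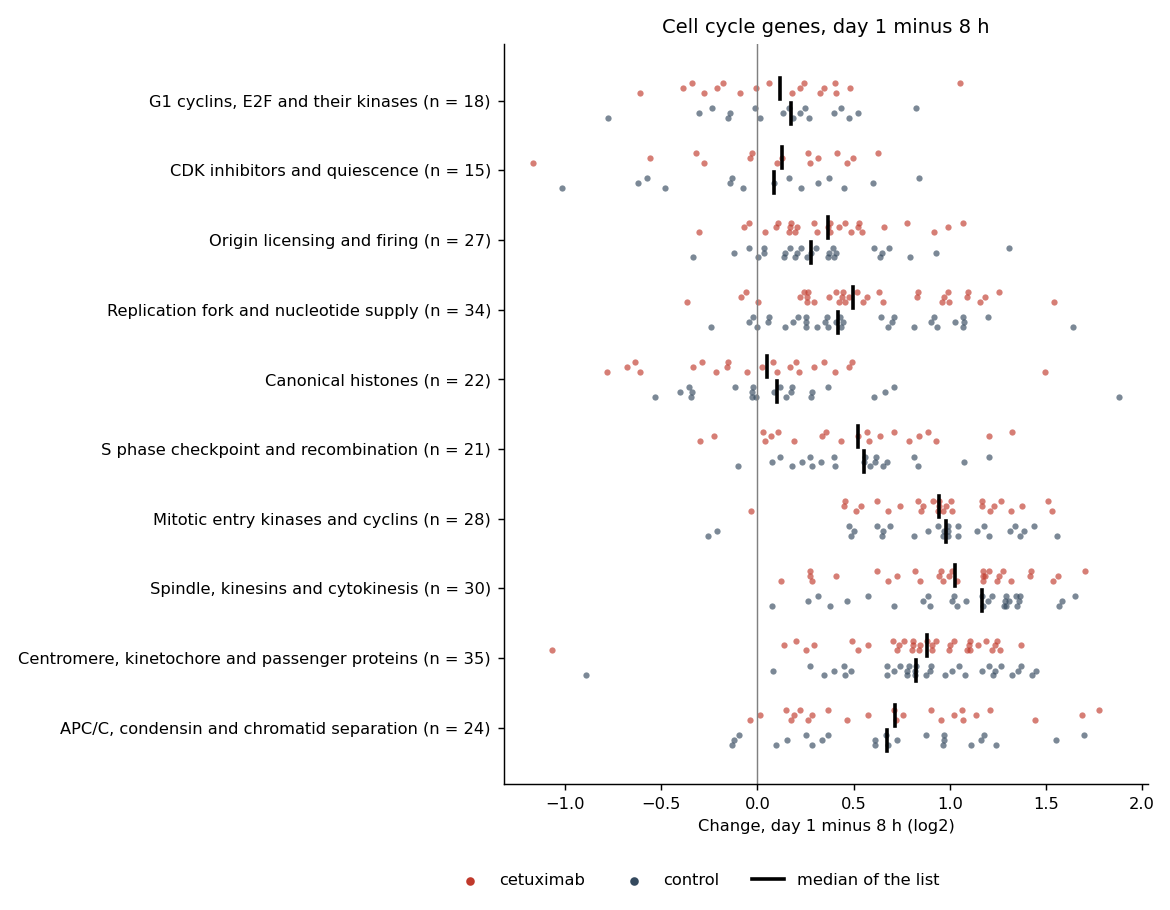
Change between day 1 and 8 h (log2) of each measured gene of the 10 cell cycle lists, a point for each gene, with the cetuximab arm above the control arm and a black bar at the median of the list. The 4 mitosis lists sit furthest to the right, with medians of 0.72 to 1.03 in the cetuximab arm, while the histone and G1 lists straddle 0.

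Promoter stretches of 6 of the risen genes are shown because they hold the letters by which mitotic and replication genes are usually recognised. They were taken from RefSeq promoters of build GRCh38.p14, from the 150 bases before the start of the gene. Among the genes considered, they had the largest rises in the cetuximab arm with a CHR match (NCAPD2, HMMR and CCNB2) and with an E2F match (KIF15, LIG1 and OIP5). Genes without a RefSeq promoter, and those of a chromosome left out of the choice, were not considered. OIP5 was added after its values were seen. Sequences read 5′ to 3′ on the strand of the gene, and capitals mark matches on either strand to the CHR (TTTGAA or TTCGAA), to CCAAT, or to E2F (TTTCCCGC, TTTGGCGC, TTTCGCGC or TTTGCCGC).
NCAPD2: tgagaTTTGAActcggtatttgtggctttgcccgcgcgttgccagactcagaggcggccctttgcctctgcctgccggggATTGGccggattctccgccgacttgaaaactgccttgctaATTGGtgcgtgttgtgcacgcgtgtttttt
HMMR: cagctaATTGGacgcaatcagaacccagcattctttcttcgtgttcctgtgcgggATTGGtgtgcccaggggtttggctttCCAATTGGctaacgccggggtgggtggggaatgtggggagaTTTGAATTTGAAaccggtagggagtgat
CCNB2: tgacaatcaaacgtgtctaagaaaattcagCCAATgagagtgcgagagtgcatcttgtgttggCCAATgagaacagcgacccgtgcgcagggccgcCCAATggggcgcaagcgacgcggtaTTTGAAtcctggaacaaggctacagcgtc
KIF15: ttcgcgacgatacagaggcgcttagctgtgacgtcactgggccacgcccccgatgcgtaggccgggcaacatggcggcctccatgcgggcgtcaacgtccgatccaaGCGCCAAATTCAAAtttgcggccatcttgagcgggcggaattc
LIG1: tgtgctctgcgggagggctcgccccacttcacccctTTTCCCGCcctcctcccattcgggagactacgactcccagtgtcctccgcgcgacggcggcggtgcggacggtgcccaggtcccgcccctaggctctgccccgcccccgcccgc
OIP5: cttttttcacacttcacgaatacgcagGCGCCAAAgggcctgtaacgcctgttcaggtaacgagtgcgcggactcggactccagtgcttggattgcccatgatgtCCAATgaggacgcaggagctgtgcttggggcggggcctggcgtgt
The stretches lie at chr12:6493952-6494101 on the plus strand (NCAPD2), chr5:163460482-163460631, plus (HMMR), chr15:59104996-59105145, plus (CCNB2), chr3:44761644-44761793, plus (KIF15), chr19:48170345-48170494, minus (LIG1), and chr15:41332592-41332741, minus (OIP5). NCAPD2 and CCNB2 each hold 1 CHR match and HMMR holds 2 in a row, with 2, 3 and 4 matches to CCAAT in NCAPD2, CCNB2 and HMMR. In KIF15 an E2F match and a CHR match adjoin on the minus strand, LIG1 has the E2F letters alone, and OIP5 has an E2F match and 1 CCAAT.

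Over the whole promoter window of 250 bases before to 50 after the start, 150 of the 176 risen cell cycle genes had a RefSeq promoter. A CHR was found in 68 of them (45.3%), CCAAT in 90 (60.0%) and E2F in 32 (21.3%). Among all genes tested that had a promoter, 10126 in number, the shares were 12.0%, 36.9% and 5.36%, and over the 27305 promoters of the table they were 16.6%, 35.7% and 3.33%. The risen genes of the 4 mitosis lists held a CHR in 61 of 84 promoters (72.6%) and E2F in 9 (10.7%), while those of the licensing and replication fork lists held a CHR in 2 of 37 (5.41%) and E2F in 16 (43.2%). Matches are a description of letters and do not show binding.

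The G1 genes moved both ways. CCND1 encodes cyclin D1, the partner of CDK4 and CDK6. It measured 9.89, 10.07 and 9.99 on day 1, against 10.60, 10.59 and 10.58 at 8 h, and fell by 0.61 ± 0.08 (SE, adjusted p = 5.23e-10). The groups did not overlap. CCNE1, for cyclin E1, measured 6.19, 6.25 and 6.36 on day 1 and 6.44, 6.43 and 6.46 at 8 h, a change of -0.18 ± 0.09 that was not called (adjusted p = 0.132), although every day 1 array was lower. E2F2, an activating E2F, was high on day 1 (8.07, 8.26 and 8.43, against 7.00, 7.09 and 7.50 at 8 h) and rose by 1.05 ± 0.10 (adjusted p = 6.84e-14). E2F1 did not separate the times, with 5.36, 4.53 and 5.32 on day 1 and 5.35, 4.89 and 4.98 at 8 h (change -0.01 ± 0.20, adjusted p = 0.985). SKP2, the subunit that directs the SCF ubiquitin ligase to p27, rose by 0.41 ± 0.10 (adjusted p = 0.000352), and the pocket protein gene RBL2 rose by 0.48 ± 0.09 (adjusted p = 1.62e-05). In the list as a whole 7 of 18 measured members rose and 4 fell, beside 18.7% and 16.9% of all genes. The other 3 that fell were CDK6, CDC25A and E2F3, named here after their values were seen, with changes of -0.39, -0.34 and -0.28.

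Genes that hold cells out of the cycle moved in both directions, with 6 of 15 risen and 4 fallen, beside 18.7% and 16.9% of all genes. E2F5, a repressive E2F, had the largest fall of all cell cycle genes measured. It read 5.10, 4.84 and 5.33 on day 1 and 6.34, 6.29 and 6.15 at 8 h, a change of -1.17 ± 0.11 (adjusted p = 5.95e-14), and E2F4, of the same kind, fell by 0.56. CCNG2, an unusual cyclin that is high in resting cells, rose by 0.63 ± 0.15 (adjusted p = 0.000307). CDKN1A encodes the inhibitor p21. It measured 9.21, 9.20 and 9.52 on day 1 and 9.64, 9.49 and 9.76 at 8 h, which overlap, and fell by 0.32 ± 0.10 (adjusted p = 0.0113). That call was lost without day 1 replicate 1 (-0.27, adjusted p = 0.0666), day 1 replicate 2 (-0.26, 0.0809) or 8 h replicate 3 (-0.25, 0.0881).

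CDKN1B encodes the inhibitor p27. It measured 7.47, 7.47 and 6.22 on day 1 and 6.74, 6.79 and 6.14 at 8 h, and the replicate 3 arrays were low at both times. The change of 0.50 ± 0.27 was not called (adjusted p = 0.146). With the replicate number as a block and only the 6 arrays in the fit it was called (adjusted p = 0.0221), as it was without day 1 replicate 3 (0.91, adjusted p = 0.00655) and, with all arrays kept, when its probes were averaged (0.41, adjusted p = 0.00775). CDKN1C and CCNE2 did not pass the filter on dim probes.

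Origin licensing and firing genes, which load and start the replicative helicase, rose in 15 of 27 and fell in 1. CDC45, a part of the active helicase, measured 8.98, 8.91 and 9.02 on day 1, against 7.89, 8.02 and 8.03 at 8 h, and rose by 0.99 ± 0.08 (adjusted p = 2.67e-17). MCM5, a helicase subunit, measured 8.02, 8.13 and 8.37 on day 1 and 7.14, 7.10 and 7.51 at 8 h, and rose by 0.92 ± 0.13 (adjusted p = 8.34e-09). GINS3 rose by 0.78 ± 0.08 (adjusted p = 3.02e-12). MCM2, another helicase subunit, moved less. Its day 1 arrays (7.53, 8.03 and 8.27) overlapped those of 8 h (7.43, 7.40 and 7.85), and its rise of 0.38 ± 0.14 (adjusted p = 0.0324) was lost when any of day 1 replicate 2 or 3 or 8 h replicate 1 or 2 was left out, with adjusted p of 0.112 to 0.313.

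Of 34 genes of the replication fork and of nucleotide supply 28 rose and 1 fell. TK1, for thymidine kinase, is a classical gene of S phase. It measured 8.55, 8.44 and 8.65 on day 1 and 7.03, 6.95 and 7.04 at 8 h, and rose by 1.54 ± 0.09 (adjusted p = 3.68e-24). LIG1, the ligase that joins Okazaki fragments, measured 6.72, 6.73 and 6.94 on day 1 and 5.38, 5.47 and 5.76 at 8 h (1.26 ± 0.12, adjusted p = 2.26e-14). DUT, which keeps uracil out of DNA, rose by 1.18 ± 0.08, and POLD1, the catalytic subunit of polymerase delta, by 1.16 ± 0.11. RRM2, the ribonucleotide reductase subunit that is limiting in S phase, measured 6.20, 6.45 and 6.33 on day 1 and 5.45, 5.42 and 5.12 at 8 h (1.00 ± 0.12, adjusted p = 4.28e-11). In each of these 5 genes the day 1 arrays lay wholly above those of 8 h.

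PCNA, the sliding clamp, was not called, and again the replicate 3 arrays were low. It measured 10.89, 10.60 and 10.01 on day 1 and 10.38, 10.30 and 9.72 at 8 h (0.37 ± 0.19, adjusted p = 0.137). Each array was higher on day 1 than the 8 h array of the same number, and with the replicate number as a block in a fit of the 6 arrays alone the gene was called (adjusted p = 0.0167). Without day 1 replicate 3 the change was 0.62 (adjusted p = 0.0163), and with the mean of its probes over all arrays it was 0.33 (adjusted p = 0.00231).

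Canonical histone genes, which are transcribed in S phase, did not follow the other replication genes. Only 22 of the 53 listed were measured. Of these, 6 rose and 5 fell, with a median of 0.05, beside 18.7% and 16.9% of all genes. H4C3 was the largest rise, with 12.69, 12.38 and 12.53 on day 1 and 10.92, 11.23 and 10.97 at 8 h (1.50 ± 0.23, adjusted p = 9.27e-08). H2AC18, H2AC20 and H1-2 fell by 0.78, 0.68 and 0.64. The copies of these genes are nearly identical, so a probe may read several of them, and most of their RNA carries no poly(A) tail. A histone value is therefore uncertain both as to its gene and as to its level.

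Among genes of the S phase checkpoint and recombination 14 of 21 rose and 0 fell at an adjusted p under 0.05. FANCI, of the Fanconi anaemia pathway, measured 7.89, 7.75 and 7.13 on day 1 and 6.47, 6.49 and 6.20 at 8 h (1.20 ± 0.16, adjusted p = 5.46e-09). RAD54L, a translocase of recombination, measured 6.89, 6.94 and 6.98 on day 1 and 5.99, 6.07 and 5.96 at 8 h, and rose by 0.93 ± 0.09 (adjusted p = 5.61e-13). Neither gene overlapped between the times, and the replicate 3 arrays of FANCI were the lowest at both.

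Most of the genes of mitosis rose. Of the kinases and cyclins of mitotic entry 26 of 28 rose, of the spindle, kinesin and cytokinesis genes 26 of 30, of the centromere, kinetochore and passenger genes 30 of 35, and of the APC/C, condensin and separation genes 18 of 24. In these 4 lists 1 gene fell. It was MAD1L1, a spindle checkpoint gene named here after its values were seen, which measured 5.76, 5.66 and 5.98 on day 1 and 6.71, 6.81 and 7.08 at 8 h (-1.07 ± 0.15, adjusted p = 1.94e-08).

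CCNA2, for cyclin A2, measured 8.52, 8.60 and 8.81 on day 1 and 7.73, 7.69 and 7.79 at 8 h, and rose by 0.91 ± 0.09 (adjusted p = 1.42e-13). CCNB2, a B-type cyclin of mitotic entry, measured 9.36, 9.40 and 9.49 on day 1 and 7.91, 7.83 and 7.93 at 8 h (1.53 ± 0.08, adjusted p = 7.02e-26). Both genes separated the times with no overlap. CCNB1 rose by 0.94 ± 0.15 and was lower in the replicate 3 arrays at both times (7.53 on day 1 and 6.78 at 8 h). CDK1, the kinase these cyclins activate, measured 9.32, 9.09 and 9.10 on day 1 and 8.05, 8.20 and 7.74 at 8 h (1.17 ± 0.14, adjusted p = 8.02e-11). The mitotic kinase genes PLK1 and TTK rose by 0.84 ± 0.13 and 1.37 ± 0.10, and PBK and CDKN3, further members of the list, by 1.32 ± 0.11 and 1.51 ± 0.10.

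NCAPD2, a subunit of condensin I, had the largest change of the cell cycle genes. It measured 7.72, 8.24 and 8.21 on day 1 and 6.12, 6.11 and 6.60 at 8 h (1.78 ± 0.14, adjusted p = 7.17e-18). HMMR, a spindle-associated protein, followed with 8.05, 8.05 and 8.15 on day 1 and 6.23, 6.24 and 6.67 at 8 h (1.70 ± 0.11, adjusted p = 2.11e-21). TOP2A, the topoisomerase that untangles sister chromatids, measured 9.94, 9.61 and 9.95 on day 1 and 8.14, 8.15 and 8.16 at 8 h (1.69 ± 0.10, adjusted p = 2.78e-22). All 3 were separated by more than 1 between the lowest day 1 array and the highest 8 h array. The kinesin genes KIF20A and KIF15 rose by 1.56 ± 0.10 and 1.42 ± 0.15, NUSAP1 of the spindle by 1.54 ± 0.09, NCAPG of condensin by 1.44 ± 0.11, CENPF and CENPM of the centromere by 1.37 ± 0.12 and 1.23 ± 0.08, and BIRC5, for survivin of the passenger complex, by 1.24 ± 0.10. MKI67, the source of the proliferation marker Ki-67, was dim on this array. It measured 4.97, 5.35 and 5.23 on day 1 and 4.44, 4.34 and 4.73 at 8 h, and rose by 0.68 ± 0.17 (adjusted p = 0.0007), a call that was lost when replicate 2 was left out of both times (0.52, adjusted p = 0.0702).

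**Figure D2:**
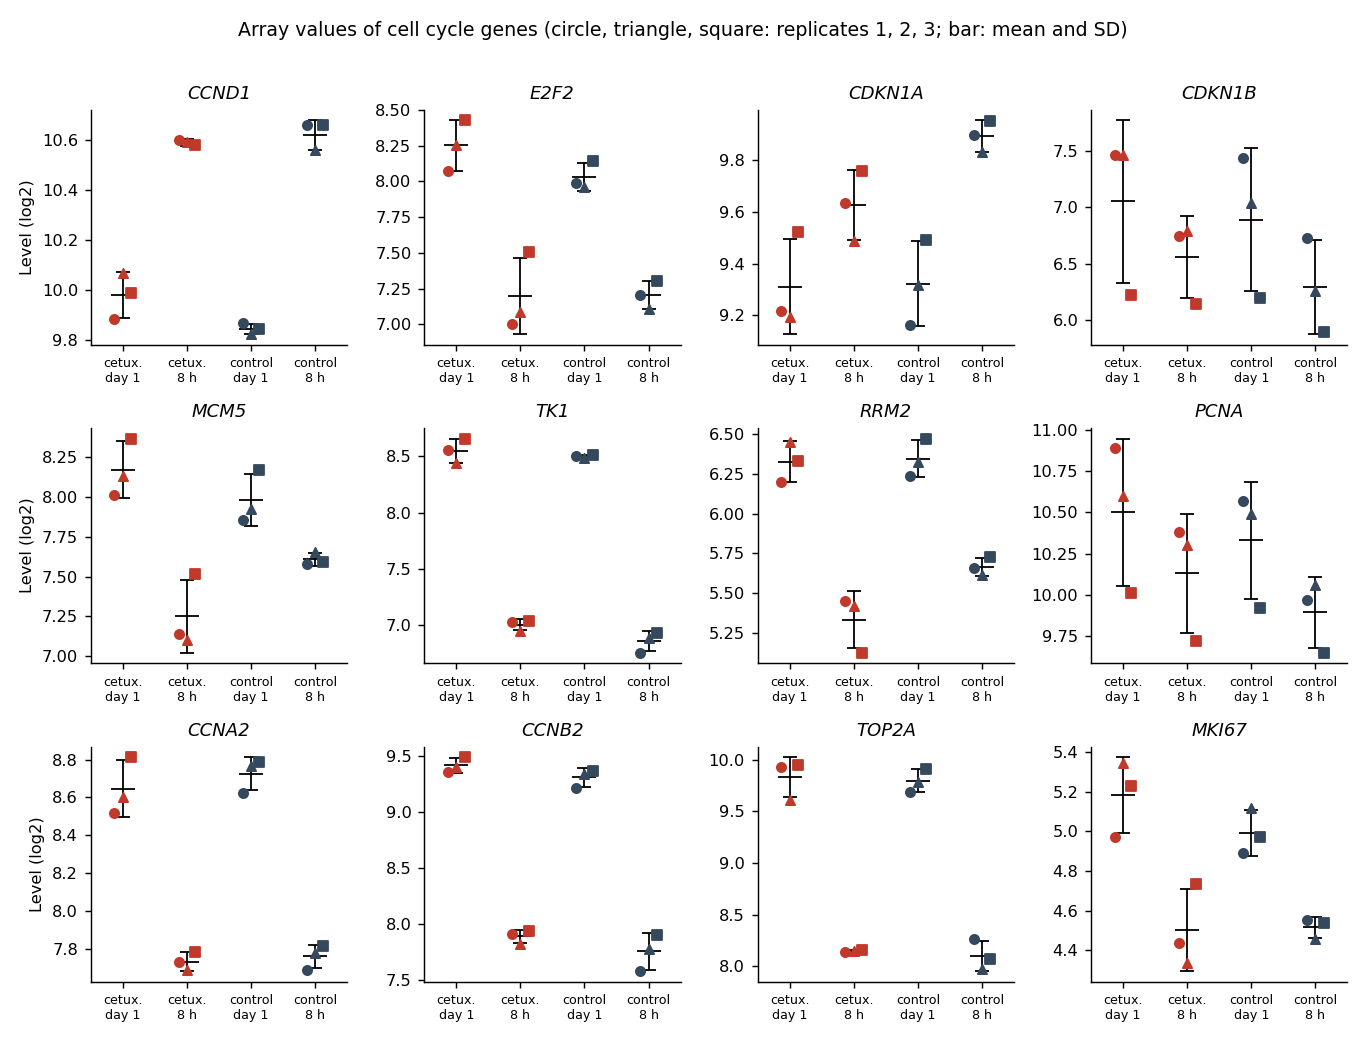
Level (log2) of 12 cell cycle genes in each array, for cetuximab day 1, cetuximab 8 h, control day 1 and control 8 h, with marker shapes for replicates 1 to 3 and bars for the mean and SD. TK1, CCNA2, CCNB2, TOP2A and RRM2 separate day 1 from 8 h in both arms, CCND1 is lower on day 1 in both, and in CDKN1B and PCNA the replicate 3 arrays sit below the others of their group.

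The control arm, which shares no array with the cetuximab arm, moved in the same way over the same interval. There 168 of the 254 cell cycle genes rose and 13 fell, with a median of 0.57, beside backgrounds of 16.6% of all genes higher and 17.1% lower, and day 1 lay wholly above 8 h in 172. Both arms shared 159 of the rises, which is 90.3% of the 176 in the cetuximab arm and 94.6% of the 168 in the control arm. The medians of the lists were also close, at 1.03 in the cetuximab arm and 1.17 in the control arm for the spindle list, 0.88 and 0.83 for the centromere list, 0.50 and 0.42 for the replication fork, and 0.37 and 0.28 for licensing. TOP2A changed by 1.69 in the cetuximab arm and 1.70 in the control arm, TK1 by 1.54 and 1.64, CCNB2 by 1.53 and 1.56, and CCND1 by -0.61 and -0.78.

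The difference between the arms' changes was tested for each gene as an interaction, the cetuximab change minus the control change. Of the 254 cell cycle genes, 0 were called in limma, where 11 had an unadjusted p under 0.05 (7 of them positive), and over all genes 1 of 12734 was called (0.00785%). The median size of the difference among the cell cycle genes was 0.11, and its 95% interval reached a median of 0.31 to either side. Among all 254 genes the interval of the difference lay within ±0.5 for 174 and within ±1 for 249. For those 249 a change under cetuximab smaller than in the control by 1 or more lay outside the interval. Among the 176 genes that rose under cetuximab, a choice made from the same arrays, the counts were 134 and 175. The median change in the control arm was 0.57, so an interval within ±1 can hold a difference as large as a typical rise. The intervals are not adjusted over genes, and a call could need a difference well past the median reach. ALDH1A1, outside the cell cycle lists, had a difference of 0.78 ± 0.17 and was not called in the limma interaction (adjusted p = 0.0512). Differences smaller than that could have been missed with 3 arrays in a group. The largest positive differences were those of MYBL2, the gene of B-MYB, named here after its values were seen (0.71, 95% interval 0.15 to 1.27, adjusted p = 0.829), and of MCM5, 0.55 ± 0.18 (95% interval 0.19 to 0.90, adjusted p = 0.613), with changes of 0.92 in the cetuximab arm and 0.37 in the control arm. The lowest differences were those of TOPBP1, which helps to start replication, and CKAP2, of the spindle, also named after their values were seen. For TOPBP1 the difference was -0.43 (95% interval -0.79 to -0.08, adjusted p = 0.87), with changes of -0.04 in the cetuximab arm and 0.39 in the control arm, and for CKAP2 it was -0.40 (95% interval -1.25 to 0.44, adjusted p = 0.996), with 0.68 and 1.08. RRM2 changed by 1.00 and 0.68 (difference 0.32, 95% interval -0.01 to 0.64).

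Set against the control at the same time, 2 of the 254 cell cycle genes were higher in cetuximab-treated cells on day 1, beside 0.895% of all genes, and 0 were lower. They were TXNIP (0.63, adjusted p = 1.80e-06), which restrains thioredoxin and glucose uptake and stands in the list of CDK inhibitors and quiescence, and the chromatin assembly gene CHAF1B (0.38, adjusted p = 0.00996), both named after their values were seen. In the list of ERK pathway output 8 of 23 genes were lower in cetuximab-treated cells than in controls on day 1 and 0 were higher, with a median of -0.29, where 0.51% of all genes were lower. The numbers pair the day 1 arrays of the arms. With the replicate number as a block over all arrays the ERK count was 8, but with the block and only the 6 day 1 arrays 1 gene of the list, EGR1, was lower. It was 4 without control replicate 2 or control replicate 3 and 5 without cetuximab replicate 2. These values use the day 1 arrays of the comparison above.

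**Figure D3:**
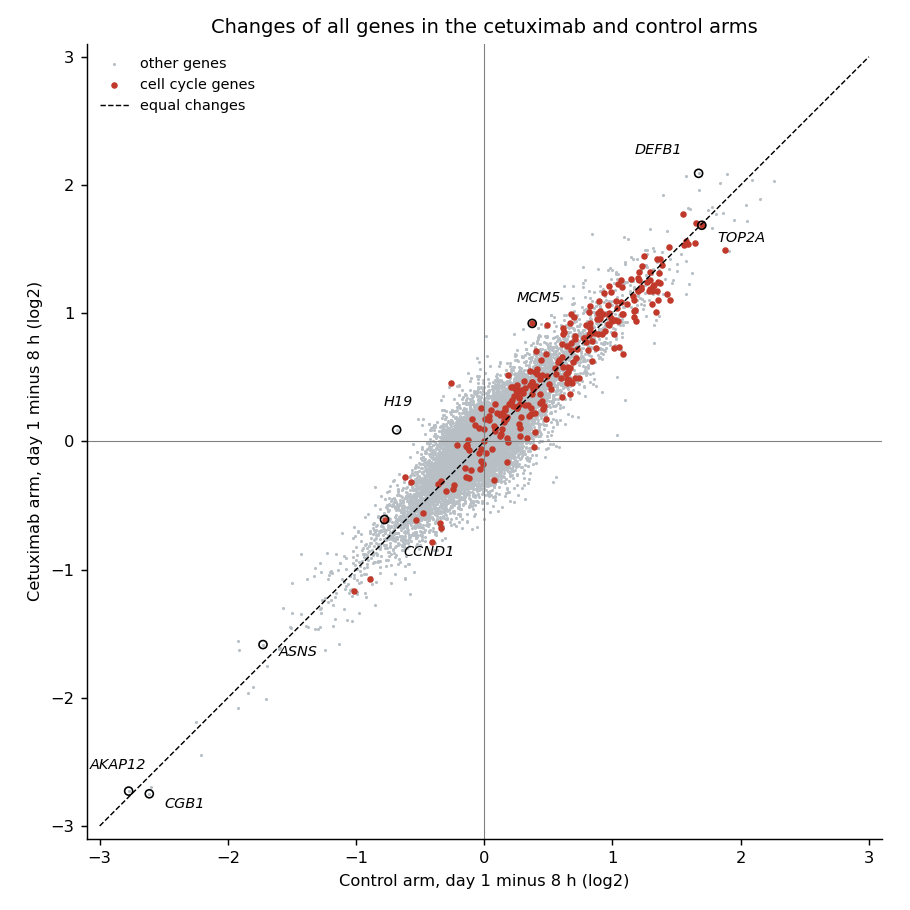
Change between day 1 and 8 h (log2) of each of the 12734 genes in the cetuximab arm (vertical) against the control arm (horizontal), with the 254 cell cycle genes in red, the line of equal changes dashed and 8 genes ringed. Most genes lie along the line, and H19 stands off it, with 0.09 in the cetuximab arm and -0.68 in the control arm.

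H19, an imprinted long noncoding RNA, was the 1 gene whose change differed between the arms. It measured 10.17, 10.51 and 10.58 on cetuximab day 1 and 10.28, 10.42 and 10.28 at cetuximab 8 h, which overlap, and its change of 0.09 ± 0.10 in that arm was not called (adjusted p = 0.526). In the control arm it measured 9.51, 9.72 and 10.01 on day 1 and 10.27, 10.55 and 10.47 at 8 h, and fell by 0.68 ± 0.10 (adjusted p = 2.66e-08). The difference was 0.77 ± 0.14 (adjusted p = 0.00572). It was not called without cetuximab day 1 replicate 2 (0.73, adjusted p = 0.0652), cetuximab day 1 replicate 3 (0.69, 0.0686) or control day 1 replicate 1 (0.65, 0.102). The call was also lost when replicate 2 was left out of all groups. Nor was it made with only the arrays of these 4 groups in the fit, without the replicate number as a block (adjusted p = 1) or with it (adjusted p = 0.363).

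Over all genes, 1765 of the 2380 rises in the cetuximab arm were also called in the control arm, which is 74.2% of the cetuximab list and 83.5% of the control list. For the falls the shared genes were 1634, or 75.7% and 75.2%. Of the 4538 genes called in the cetuximab arm, 4435 had the same sign of change in the control arm and 1 was called in the opposite direction. Across the 12734 genes, which are not independent replicates, the changes in the arms correlated at r = 0.889.

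The ERK output and the immediate early genes were lower on day 1 than at 8 h under cetuximab. In the ERK list 11 of 23 fell and 1 rose, with a median of -0.33 (control arm 11 and 3, median -0.17). Over all genes 16.9% fell and 18.7% rose in the cetuximab arm. FOSL1, for the AP-1 subunit FRA1, measured 6.59, 6.48 and 6.53 on day 1 and 8.48, 8.48 and 8.66 at 8 h (-2.01 ± 0.10, adjusted p = 1.91e-27). DUSP5, a nuclear phosphatase of ERK, measured 8.12, 8.19 and 8.06 on day 1 and 9.41, 9.52 and 9.48 at 8 h (-1.35 ± 0.07, adjusted p = 4.58e-25). These genes did not overlap between the times. SPRY4, a feedback inhibitor of receptor signalling, fell by 0.84 ± 0.12, and HMGA2, a chromatin protein, by 0.85 ± 0.13. DUSP6, the cytoplasmic phosphatase of ERK, measured 8.85, 8.78 and 8.24 on day 1 and 9.29, 9.10 and 8.46 at 8 h, and its change of -0.33 ± 0.18 was not called (adjusted p = 0.165). It was called with the replicate number as a block in the 6 arrays alone (adjusted p = 0.0262), without 8 h replicate 3 (-0.57, adjusted p = 0.0169), and with the mean of its probes over all arrays (-0.38, adjusted p = 0.00606).

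Of 35 immediate early genes 21 fell and 3 rose (control arm 20 and 1), beside 16.9% and 18.7% of all genes in the cetuximab arm. FOSB, of the AP-1 family, measured 6.34, 6.16 and 6.38 on day 1 and 7.84, 7.80 and 8.07 at 8 h (-1.61 ± 0.12, adjusted p = 8.36e-19). FOS and EGR1 themselves were not called, with changes of -0.22 ± 0.12 (adjusted p = 0.136) and -0.11 ± 0.14 (adjusted p = 0.581). They had fallen before 8 h, by 6.07 and 4.65 between time 0 and 8 h. MYC, the growth regulator, measured 8.83, 8.81 and 9.16 on day 1 and 9.70, 9.85 and 9.97 at 8 h, and fell by 0.91 ± 0.10 (adjusted p = 8.32e-12), with a change of -0.92 in the control arm.

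In the list of EGFR ligands, which also holds ligands of ERBB3 and ERBB4, 4 of 6 measured genes fell and 1 rose. Of 16 ERBB receptors and regulators 5 fell and 3 rose. Over all genes 16.9% fell and 18.7% rose, and the risen ERBB members lay near that share. TGFA, a ligand of EGFR, measured 7.21, 7.28 and 6.90 on day 1 and 8.31, 8.38 and 7.92 at 8 h (-1.07 ± 0.13, adjusted p = 6.18e-11). HBEGF, another ligand, fell by 0.67 ± 0.08, and NRG1, a ligand of ERBB3 and ERBB4, by 0.61 ± 0.14. NRG4, a ligand of ERBB4, rose by 1.32 ± 0.11, with 6.00, 6.10 and 6.20 on day 1 and 4.57, 4.79 and 4.98 at 8 h. EGFR itself measured 7.58, 7.86 and 7.70 on day 1 and 8.02, 8.08 and 7.76 at 8 h, which overlap, and its change of -0.24 ± 0.11 was not called (adjusted p = 0.0731), though it was without day 1 replicate 2 (-0.31, adjusted p = 0.0363) or 8 h replicate 3 (-0.34, adjusted p = 0.0209). In the control arm EGFR changed by -0.48 ± 0.11 (adjusted p = 0.000193), and by -0.20 (adjusted p = 0.113) with the mean of its probes. ERBB2 rose by 0.46 ± 0.10 (adjusted p = 0.000147), a call lost with the mean of its probes (0.17, adjusted p = 0.126), and ERBB3 was variable between replicates (6.70, 7.26 and 7.48 on day 1, 6.35, 7.28 and 7.24 at 8 h, adjusted p = 0.608), though it was called as risen with the mean of its probes (0.29, adjusted p = 0.0406). ERRFI1, for the receptor inhibitor MIG6, fell by 0.95 ± 0.08, and SOCS2, a suppressor of cytokine signalling, by 0.99 ± 0.10.

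Genes for ribosome assembly fell while those for replication rose. Of 37 genes of ribosome biogenesis and MYC targets 29 fell and 0 rose at an adjusted p under 0.05, with a median of -0.57 (control arm 27 and 0, median -0.48). RRP12, of ribosomal subunit export, measured 6.31, 6.46 and 6.36 on day 1 and 7.34, 7.39 and 7.44 at 8 h (-1.01 ± 0.10, adjusted p = 4.84e-14). NOP16 and the helicase gene DDX10 fell by 0.85 ± 0.10 and 0.82 ± 0.08. The cytosolic ribosomal proteins themselves hardly moved, with 2 of 43 risen, 3 fallen and a median of -0.07.

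Metabolic lists separated as well. Cholesterol synthesis and uptake rose in 11 of 19 genes and fell in 0, with a median of 0.39 (control arm 13 and 0, median 0.55). ACAT2, the first enzyme of the pathway in the cytosol, measured 8.85, 9.11 and 8.95 on day 1 and 7.64, 7.26 and 7.54 at 8 h (1.49 ± 0.12, adjusted p = 1.07e-16), and INSIG1, which holds the sterol-regulated factors in the endoplasmic reticulum, rose by 1.38 ± 0.12. Fatty acid synthesis, a separate list, was less uniform. It rose in 6 of 14 genes and fell in 1, with a median of 0.20 and changes from -0.68 to 1.38 (control arm 7 and 1, median 0.40). Among its largest rises SREBF1, the transcription factor of lipid synthesis, rose by 1.38 ± 0.09. FADS1, a desaturase, rose by 1.10 ± 0.09 and ACSS2, which makes acetyl-CoA from acetate, by 0.99 ± 0.08. Oxidative phosphorylation rose in 21 of 34 genes and fell in 0, in small steps (median 0.25, highest 0.73), with NDUFB5 of complex I and UQCRB of complex III at 0.66 ± 0.09 each. ATF4 targets of amino acid stress fell in 16 of 27 and rose in 3, beside 16.9% and 18.7% of all genes. ASNS, asparagine synthetase, measured 8.70, 8.86 and 8.89 on day 1 and 10.24, 10.45 and 10.52 at 8 h (-1.58 ± 0.10, adjusted p = 1.83e-22), and TRIB3 and PSAT1 fell by 1.06 ± 0.08 and 0.87 ± 0.10.

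Interferon-stimulated genes had the highest share of risen members among the lists outside the cell cycle, with 24 of 32 risen and 1 fallen and a median of 0.60 (control arm 24 and 1, median 0.58). HERC5, a ligase for ISG15, measured 6.36, 6.38 and 6.20 on day 1 and 4.66, 4.94 and 4.85 at 8 h (1.50 ± 0.11, adjusted p = 6.61e-19). IFIT2, UBE2L6 and SAMD9 rose by 1.32 ± 0.13, 1.24 ± 0.08 and 1.16 ± 0.09. Inflammatory genes under NF-kB went the other way, with 12 of 25 fallen and 1 risen, beside 16.9% and 18.7% of all genes. CXCL8, a neutrophil chemokine, fell by 1.39 ± 0.14, and the interleukins IL1A and IL1B by 1.04 ± 0.12 and 1.04 ± 0.11. YAP/TEAD targets and matricellular genes fell in 15 of 22 and rose in 1, with a median of -0.57 in the cetuximab arm and in the control arm alike.

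FOXO targets, which are on when growth factor signalling is low, rose in 8 of 19 and fell in 0 (control arm 6 and 1). Over all genes 18.7% rose and 16.9% fell in the cetuximab arm. SESN3, a sestrin that restrains mTORC1, measured 5.92, 6.32 and 5.76 on day 1 and 4.66, 4.67 and 4.76 at 8 h (1.30 ± 0.12, adjusted p = 2.75e-15), and FBXO32, for the ubiquitin ligase atrogin-1, rose by 1.01 ± 0.11. Genes of squamous differentiation rose in 13 of 31 and fell in 7, beside the same shares of all genes. DSG3 and KRT13 rose by 1.81 ± 0.15 and 0.99 ± 0.07, whereas SPRR1A and SPRR3, of the cornified envelope, fell by 1.44 ± 0.09 and 1.34 ± 0.11. CDH1, for E-cadherin, rose by 0.30 ± 0.10 (adjusted p = 0.00975), a call lost without day 1 replicate 2 (0.25, adjusted p = 0.0706), and VIM, for vimentin, changed by 0.04 ± 0.10 (adjusted p = 0.788). Housekeeping genes, as a list, had a median of 0.08, with 6 of 23 risen and 4 fallen, where 18.7% and 16.9% of all genes did so.

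Other lists had calls in both directions, to be read beside the 18.7% of all genes that rose and the 16.9% that fell. Matrix genes and matrix proteases rose in 9 of 25 and fell in 10. LOXL4, a lysyl oxidase that crosslinks collagen, measured 8.25, 8.27 and 8.37 on day 1 and 7.13, 7.16 and 7.24 at 8 h (1.12 ± 0.09, adjusted p = 3.29e-17), and MMP7, a matrix protease, fell by 1.30 ± 0.11. Markers of ductal epithelium rose in 4 of 16 and fell in 5, with TFF1, a trefoil peptide, at -1.46 ± 0.12, the keratin KRT7 at -0.55 ± 0.08 and the tetraspanin TSPAN8 at 0.83 ± 0.11. Clock genes rose in 6 of 17 and fell in 2. DBP and TEF, output factors of the clock, rose by 1.09 ± 0.11 and 0.78 ± 0.11, and BMAL1, of its positive limb, fell by 0.73 ± 0.12. Genes of hypoxia and glycolysis fell in 10 of 34 and rose in 5, and cytosolic heat shock proteins fell in 6 of 18 and rose in 1. The p53 targets, with 5 of 22 fallen and 4 risen, lay near the shares over all genes. VEGFA, the angiogenic factor, fell by 0.97 ± 0.13 and the death receptor gene TNFRSF10B by 0.53 ± 0.10.

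The largest single rises under cetuximab were DEFB1 and NMU. DEFB1, a beta-defensin of epithelia, measured 8.36, 8.34 and 8.67 on day 1 and 6.35, 6.26 and 6.49 at 8 h (2.09 ± 0.09, adjusted p = 1.98e-30). NMU, the peptide neuromedin U, measured 8.29, 8.21 and 8.03 on day 1 and 6.25, 5.93 and 6.09 at 8 h (2.08 ± 0.09, adjusted p = 1.71e-29). TNFSF10, the death ligand TRAIL, measured 6.78, 7.18 and 6.87 on day 1 and 4.81, 5.09 and 4.71 at 8 h (2.07 ± 0.12, adjusted p = 4.23e-23). Each of these genes differed between the times by far more than its replicates did, and arrays that do not overlap were a condition of their choice. LGALS1, for galectin-1, rose by 2.03 ± 0.12 and MMP9, a matrix protease, by 1.92 ± 0.15.

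Enzymes that oxidise or reduce alcohols and aldehydes were 5 of the 15 largest rises, a grouping made after their values were seen. ADH1A and ADH1C, class I alcohol dehydrogenases whose sequences are close enough that a probe may read both, rose by 2.04 ± 0.11 and 2.02 ± 0.10, and ADH7, of another class of the family, by 1.78 ± 0.13. AKR1B10, an aldo-keto reductase, measured 8.66, 8.70 and 8.78 on day 1 and 6.88, 6.81 and 6.78 at 8 h (1.89 ± 0.12, adjusted p = 1.46e-22). ALDH7A1, an aldehyde dehydrogenase of lysine breakdown, rose by 1.83 ± 0.08. The remaining large rises were DGLUCY, PRTFDC1, TMT1A, DSG3 and TNFAIP8L1, at 1.80 to 1.96. TMT1A was the least even of the 15, at 7.23, 6.73 and 5.69 on day 1 and 4.93, 4.78 and 4.47 at 8 h (1.82 ± 0.33).

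Genes of the gonadotropin beta cluster led the falls. CGB1 measured 6.05, 5.92 and 5.98 on day 1 and 8.68, 8.79 and 8.72 at 8 h (-2.75 ± 0.10, adjusted p = 1.27e-33). CGB5 and CGB8, which encode chorionic gonadotropin beta, changed by -2.70 ± 0.14 and -2.45 ± 0.12, and LHB, for luteinizing hormone beta, by -2.08 ± 0.13. These genes are near-identical copies, so it is uncertain which of them the probes read. AKAP12, a scaffold of protein kinase A, measured 5.64, 5.72 and 5.56 on day 1 and 8.27, 8.53 and 8.31 at 8 h (-2.73 ± 0.11, adjusted p = 9.67e-33).

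Other large falls were SH2D5 (-2.19 ± 0.13), the sphingosine kinase SPHK1 (-1.96 ± 0.13), TNFAIP3 (-1.92 ± 0.13), an inhibitor of NF-kB, and TMEM158 (-1.75 ± 0.08). EDN1, for endothelin-1, changed by -1.63 ± 0.13, TAGLN, an actin-binding protein, by -1.63 ± 0.11, and the matricellular genes CCN2 and CCN1 by -1.62 ± 0.12 and -1.61 ± 0.11. In the control arm the 15 largest falls of the cetuximab arm changed by -1.24 (EDN1) to -2.77 (AKAP12), and its 15 largest rises by 1.39 (MMP9) to 2.26 (LGALS1), each in the same direction.

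**Figure D4:**
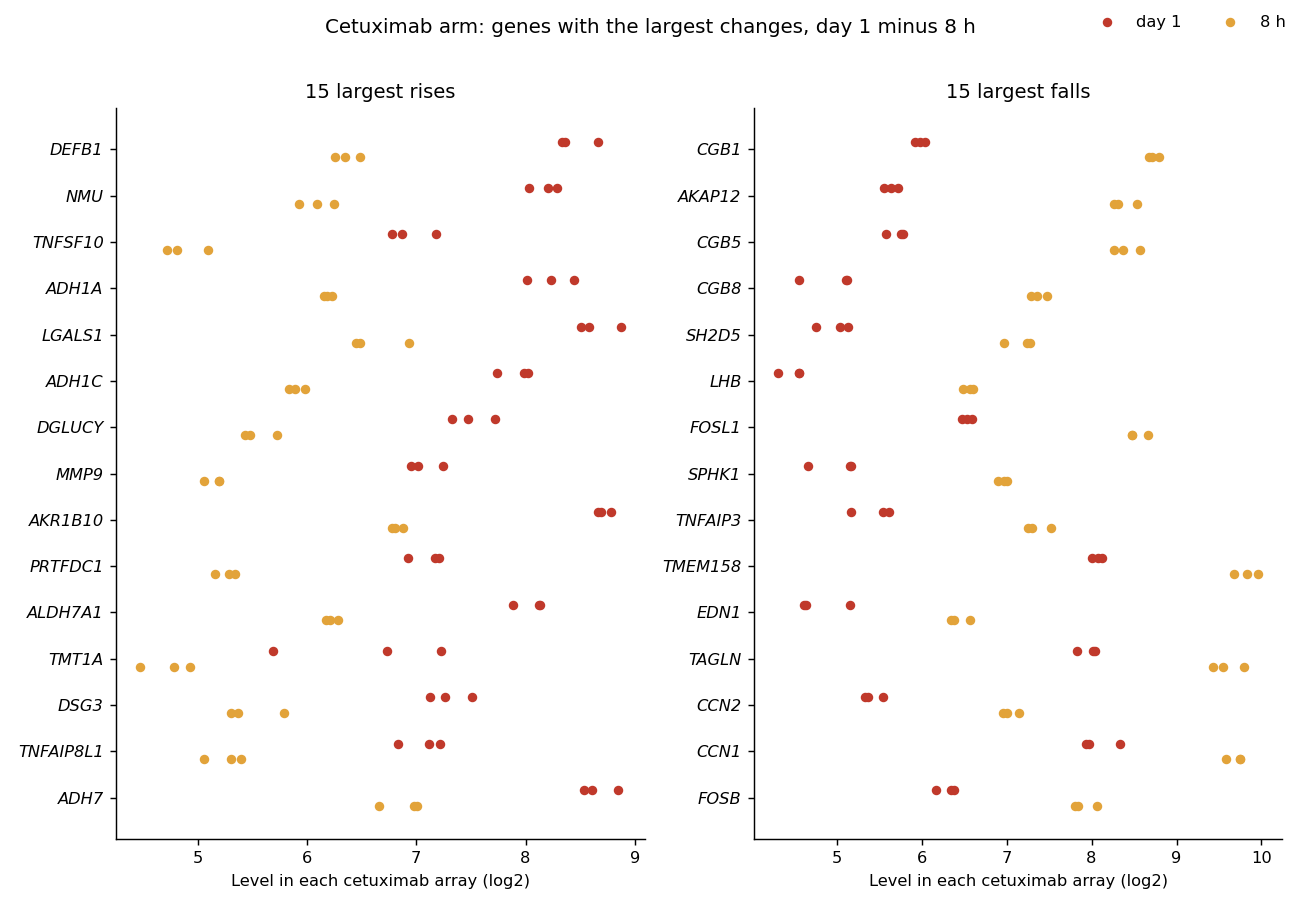
Level (log2) in each cetuximab array of the 15 genes with the largest rises (left) and the 15 with the largest falls (right), day 1 in red above 8 h in yellow. The day 1 and 8 h arrays of each gene do not overlap, which the choice of these genes required, and TMT1A has the widest spread of day 1 values, 5.69 to 7.23.

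Part of the cell cycle rise had begun before 8 h. Between time 0 and 8 h in the cetuximab arm, a comparison that shares the 8 h arrays, 125 of the 254 cell cycle genes rose and 26 fell (17.1% and 16.4% of all genes), with a median of 0.27. CCNE1, which was not called between 8 h and day 1, went up by 0.97 ± 0.09, and KIF20A and CCNA2 by 1.27 ± 0.10 and 0.94 ± 0.09, while LIG1, POLD1 and NCAPD2 were not called (adjusted p of 0.2 to 0.973). Ribosome biogenesis rose in 22 of 37 genes in this earlier interval and fell in 3, CGB1 rose by 1.50 ± 0.10, and 13 of 19 FOXO targets fell. Between 8 h and day 1 CGB1 fell, 29 of the 37 ribosome genes fell and 8 of the 19 FOXO targets rose. The directions were thus opposite for CGB1 and for both lists as a whole, which does not hold for each member. Both intervals use the same 8 h arrays, so any deviation of those arrays enters them with opposite signs.

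After day 1 few cell cycle genes rose further. Between day 1 and day 2, which shares the day 1 arrays, 2 cell cycle genes rose and 55 fell (3.29% and 3.76% of all genes), with a median of -0.14. The risen genes were CCND1 (0.24 ± 0.08) and CCNE1 (0.31 ± 0.09). The call of CCND1 was lost without any one of the 3 day 2 arrays or without day 1 replicate 1 or 3, and that of CCNE1 without day 1 replicate 1 or 2 or day 2 replicate 2 or 3. Neither was called with only the 6 arrays in the fit (adjusted p = 0.35 for CCND1 and 0.246 for CCNE1). TTK changed by -0.71 ± 0.10 and TOP2A by -0.55 ± 0.10, and with only those arrays they were not called (adjusted p = 0.0542 and 0.085). KIF15 changed by -0.62 ± 0.15, a call lost without day 1 replicate 2 (-0.44, adjusted p = 0.111) and with only those arrays (adjusted p = 0.256), whereas TK1, LIG1 and MCM5 were not called. DEFB1 went on to rise by 1.44 ± 0.09, and CCN2, CCN1 and EDN1 rose by 1.38 ± 0.12, 1.21 ± 0.11 and 1.02 ± 0.13 after their fall. The count of calls in this interval rests on few arrays. It was 898 over all genes, and 472, 326 and 560 without replicate 1, 2 or 3. The 55 falls among cell cycle genes were 2 with only the 6 arrays in the fit and 13 with the replicate number as a block in them.

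**Figure D5:**
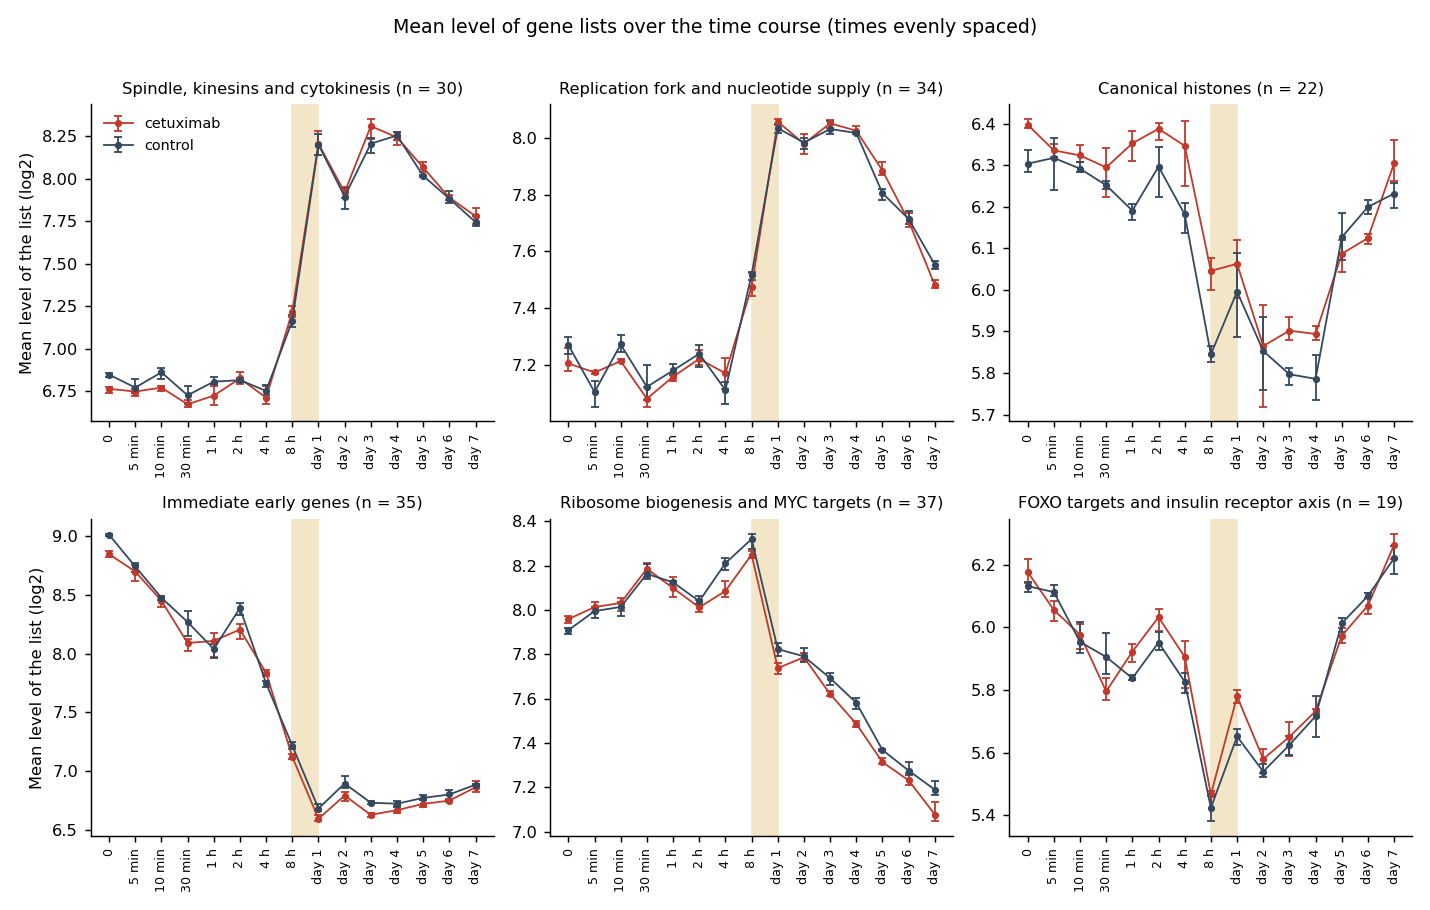
Mean level (log2) of 6 gene lists at the 15 times, evenly spaced and not to scale, in the cetuximab arm (red) and the control arm (dark blue), with bars from the lowest to the highest of the 3 arrays and the interval of 8 h to day 1 shaded. In the cetuximab arm the spindle list stood at 6.71 at 4 h, 7.22 at 8 h, 8.21 on day 1 and 7.92 on day 2, and the immediate early list at 7.84, 7.13, 6.60 and 6.80 at those times.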

How the data were processed

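Total RNA of BxPC-3 cells from 90 samples had been hybridised to Illumina HumanHT-12 v4 arrays. The deposited values were taken as log2, a scale inferred from their range of 0.26 to 13.8, and the submitters' processing notes list limma, without a version. How the authors corrected background and normalized is stated in none of the sources used here. Array medians lay at 4.29 to 4.36, and values were used as deposited.

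Of 47292 probes, 30096 had 1 symbol in GEO's platform annotation, 8 had several and 17188 are not listed in it. Symbols were updated through gene IDs against RefSeq genes (30057 probes) or accessions (18). Probes whose mean fell short of 4.24, the median probe, were dropped, and the brightest probe stood for a gene, which left 12734 genes. One limma model (version 3.58.1, R 4.3.3, two-sided moderated tests) held a mean for each of 30 groups of arm and time over the 90 arrays, and took the spread from all groups. It had been checked on simulated data. Genes named are the 15 largest rises and falls among called genes whose groups do not overlap, the leading genes of the adjacent intervals and of the arm difference, up to 4 members of each list with the largest change, and 29 fixed genes, and some genes that this rule names are not reported here. Members and lists were chosen with earlier results of these data known. No set test was run.

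The labels number the replicates. Deviations of same-numbered cetuximab arrays from their group means correlated at 0.35, 0.27 and 0.54 between day 1 and 8 h, so the numbers pair these samples, as judged from the data and not from the design. They were 0.42, 0.26 and 0.57 between the arms on day 1 and 0.44, 0.12 and 0.51 between cetuximab day 2 and day 1, which pairs those too. Between control day 1 and 8 h they were 0.34, 0.093 and 0.39, and the rule was not met. Alternatives were median centring, quantile normalization, other filters on dim probes, probes averaged per gene, array weights, another variance prior, a replicate block, a fit of only the arrays compared, and leaving out each array or replicate number.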

Additional observations from a re-analysis of the deposited data

Results flagged for a closer look

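H19 was the gene whose change between 8 h and day 1 differed between the arms, by 0.773 (cetuximab minus control, limma interaction, adjusted p = 0.00572). In the cetuximab arm day 1 was 0.09 above 8 h, while in the control arm it was 0.68 below it (-0.684), and the control day 1 arrays (9.51 to 10.01) lay below all 9 others of the 4 groups (10.17 to 10.58).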

How the results depend on the processing

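The count of 176 risen cell cycle genes stayed between 153 and 181 under the alternatives for scaling, filtering, probes, weights and blocks, and between 149 and 176 when arrays were left out, and the count of cell cycle genes that differed between the arms was 0 in each. The 4538 genes changed under cetuximab became 2994 when only the 6 arrays entered the fit, and 3193 to 4538 when arrays were left out, with the lowest count without replicate 2. The control arm gave 2961 to 4290 and the interval of time 0 to 8 h gave 2848 to 4273 in that way. With the replicate number as a fixed block the cetuximab count was 4648, with a random block 4621, and with the block and only the arrays compared 4167. Beside the calls of CDKN1B, PCNA and DUSP6 given above, the pairing changed no other call of the genes named above for 8 h to day 1 in that arm.

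The number of genes whose change differed between the arms was 1, and it became 6 with a stricter filter on dim probes, 4 with array weights, 5 with another variance prior, 7 with a fixed replicate block, 6 with a random one, 0 with only the arrays compared, 0 with the block and only those arrays, and 0 to 5 when arrays were left out. The count between day 1 and day 2 (898) was 69 with only the arrays compared, 232 with the block added, and 326 to 902 when arrays were left out.

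Alternatives for the day 1 arms and for list counts after day 1 were chosen after seeing the data. With only the arrays compared, the 8 ERK genes lower under cetuximab on day 1 became 0, the 2 cell cycle genes higher on day 1 became 0, and the 55 cell cycle genes fallen and 2 risen after day 1 became 2 and 0. With the replicate number as a block in those arrays the counts were 1, 1, 13 and 0. Leaving out single arrays gave 4 to 8, 1 to 2, 37 to 49 and 0 to 2.

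In the cetuximab arm between 8 h and day 1, a fit of only the 6 arrays ended the calls of CDH1, CDKN1A, ERBB2 and MCM2 (adjusted p = 0.0709, 0.106, 0.0531 and 0.2). Without a filter on dim probes MCM2 was not called (adjusted p = 0.0523), and with array weights EGFR was called (adjusted p = 0.0496).

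Leaving out arrays turned the sign of 4 changes under cetuximab that were not called. E2F1 ranged over -0.178 to 0.262, ERBB3 over -0.114 to 0.415, VIM over -0.0199 to 0.0896 and H19 over -0.0147 to 0.215. The causes were not tested. With 3 arrays a group the standard error of a change was 0.119 for the median gene and that of a difference between arms 0.168, which limits what could be seen.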

Other observations

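The interaction called further genes under some of the alternatives, though not in the fit used above, and their values are given without explanation and were chosen after being seen. ALDH1A1, a retinal dehydrogenase, measured 6.49, 6.55 and 6.92 on cetuximab day 1 and 5.20, 4.87 and 5.04 at cetuximab 8 h, a change of 1.62 against 0.84 in the control arm (difference 0.78 ± 0.17, adjusted p = 0.0512), and was called in 7 of the alternatives. PAPLN, a matrix protein, changed by 0.82 under cetuximab and 0.02 in the control arm (difference 0.80 ± 0.17, adjusted p = 0.0512). CEMIP, a protein of hyaluronan breakdown, changed by 0.32 and 1.10 (difference -0.78 ± 0.17, adjusted p = 0.0669), and GNG11, a G protein subunit, by -0.28 and 0.56 (difference -0.83 ± 0.18, adjusted p = 0.0512). Each of these 3 was also called in 7 alternatives. MUC1, a mucin, changed by 0.06 and -0.46 (difference 0.52 ± 0.12, adjusted p = 0.0806) and was called in 5. ETV5, an ETS factor downstream of ERK, changed by -0.18 and 0.32 (difference -0.50 ± 0.12, adjusted p = 0.0913) and was called in only 1. LOXL4, CDX2 and CLIC3 were also called in 1 alternative each, with differences of 0.52, 0.61 and 0.57 (adjusted p = 0.0913, 0.0806 and 0.254 in the main limma interaction).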
